A study of Homo sapiens with 9 samples.

Results

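A group of 9 genes that write, erase or anchor DNA methylation and histone H3 lysine 27 methylation was followed in Huh7, a human hepatocellular carcinoma cell line: the DNA methyltransferases DNMT1, DNMT3A and DNMT3B, the 5-methylcytosine dioxygenases TET1, TET2 and TET3, and the core subunits EZH2, EED and SUZ12 of Polycomb repressive complex 2 (PRC2). They were taken by name, and every probe set that the array annotation pairs with exactly 1 symbol, equal to 1 of these 9, was kept. This gave 19 probe sets of the 54613 that are not array controls. The series examined how Huh7 cells respond to pentagalloyl glucose (PGG), a natural gallotannin that was studied for its effect on the methyltransferase gene GNMT. Its 9 arrays comprised PGG at 0.1 mg/mL for 6 h (3 arrays), PGG at 0.1 mg/mL for 48 h (3 arrays) and the solvent, phosphate-buffered saline (PBS), for 48 h (3 arrays). All groups were the same unmodified line, kept in culture for a day before treatment, and the arrays of a group are labelled as biological replicates. The titles and the design put the PBS arrays at 48 h, whereas 1 description field on them reads 0 hours. No PBS culture was harvested at 6 h, so at that time PGG and time in culture cannot be told apart.

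DNMT1 is the maintenance methyltransferase that copies methylation marks onto newly replicated DNA, and DNMT3A and DNMT3B set marks on unmethylated sites. The TET enzymes oxidise 5-methylcytosine, which opens the way to its removal by base excision repair or by dilution during replication. In PRC2, EZH2 is the catalytic subunit that methylates H3 lysine 27, EED binds the trimethylated mark and stimulates the enzyme, and SUZ12 holds the complex together. EZH2 and DNMT1 are commonly raised in hepatocellular carcinoma, while fetal and dividing liver cells also carry more of both than resting hepatocytes do.

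At 6 h of PGG the signal of DNMT1, DNMT3B, TET1, EZH2 and EED was above PBS, and that of TET3 and SUZ12 was below it. At 48 h, DNMT1, DNMT3A, EZH2 and EED stood below PBS, and DNMT3B, TET1, TET2 and SUZ12 stood above it. DNMT1, EZH2 and EED were thus higher than PBS at the early time and lower at the late one, SUZ12 took the opposite course, and DNMT3B and TET1 were above PBS at both times. These statements refer to the brightest probe set of each gene, and all of the differences were small: the 9 brightest probe sets lay between -0.67 and 0.82 on the log2 scale at 6 h and between -0.55 and 0.61 at 48 h.

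The sequences just upstream of the start sites of 5 genes are shown because DNMT1, EZH2 and EED moved together in both comparisons, whereas SUZ12 and TET3 went the other way at 6 h. Each run holds the 250 bases before an annotated start in RefSeq on GRCh38.p14, read 5′ to 3′ on the strand of the gene, and no transcribed base is included. The windows are chr19:10194954-10195203 on the minus strand for DNMT1, chr7:148884292-148884541 on the minus strand for EZH2, chr11:86244503-86244752 on the plus strand for EED, chr17:31936757-31937006 on the plus strand for SUZ12 and chr2:73984660-73984909 on the plus strand for TET3. EZH2 and TET3 have 2 annotated windows each, of which the first listed is shown. Capitals mark 3 kinds of word on either strand: the E2F words TTTCCCGC, TTTGGCGC, TTTCGCGC and TTTGCCGC, the E-box CACGTG bound by MYC and related factors, and the CCAAT box bound by NF-Y.
DNMT1: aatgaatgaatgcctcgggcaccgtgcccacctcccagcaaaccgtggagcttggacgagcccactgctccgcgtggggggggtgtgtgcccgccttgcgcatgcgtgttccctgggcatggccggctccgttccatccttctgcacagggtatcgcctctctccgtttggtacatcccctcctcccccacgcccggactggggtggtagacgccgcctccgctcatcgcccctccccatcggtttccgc
EZH2: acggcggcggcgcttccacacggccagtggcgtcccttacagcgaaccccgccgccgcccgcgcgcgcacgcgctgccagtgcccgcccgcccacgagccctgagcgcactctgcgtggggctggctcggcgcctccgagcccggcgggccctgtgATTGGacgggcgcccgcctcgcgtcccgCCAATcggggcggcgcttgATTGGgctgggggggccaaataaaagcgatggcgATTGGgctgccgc
EED: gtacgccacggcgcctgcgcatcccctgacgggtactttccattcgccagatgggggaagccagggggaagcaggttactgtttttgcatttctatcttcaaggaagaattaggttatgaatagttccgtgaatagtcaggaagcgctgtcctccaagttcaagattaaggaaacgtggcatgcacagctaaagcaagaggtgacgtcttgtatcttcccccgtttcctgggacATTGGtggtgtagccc
SUZ12: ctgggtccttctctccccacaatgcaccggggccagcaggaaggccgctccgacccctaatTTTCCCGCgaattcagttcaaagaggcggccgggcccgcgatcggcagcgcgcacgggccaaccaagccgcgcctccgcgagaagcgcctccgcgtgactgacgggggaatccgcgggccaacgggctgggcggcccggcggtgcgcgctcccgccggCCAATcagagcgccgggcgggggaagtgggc
TET3: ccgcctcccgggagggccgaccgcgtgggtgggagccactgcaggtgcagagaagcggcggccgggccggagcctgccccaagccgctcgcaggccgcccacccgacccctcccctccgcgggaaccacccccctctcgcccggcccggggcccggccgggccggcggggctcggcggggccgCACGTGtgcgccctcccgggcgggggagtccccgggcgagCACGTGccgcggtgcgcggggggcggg
The EZH2 window held 4 CCAAT boxes within its last 94 bases, and the EED and SUZ12 windows held 1 each. SUZ12 alone among the 9 genes carried an E2F word, 189 to 182 bases before the start, and the TET3 window carried 2 E-boxes. In the DNMT1 window none of these words occurred. Over all 35114 promoter windows of the same length, an E2F word was present in 2.79%, an E-box in 6.35% and a CCAAT box in 32%. CpG sites numbered 21 in the DNMT1 window, 38 in EZH2, 11 in EED, 34 in SUZ12 and 37 in TET3, against a median of 11 over all windows. The remaining windows of the 9 genes, 19 in all, held E-boxes in DNMT3A and TET2 and CCAAT boxes in DNMT3B, TET1 and the second TET3 window. Words found in a window are letters only, and their use in these cells was not measured.

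Values are log2 signals from RMA, so a difference of 1 is a doubling, and a level is not comparable between probe sets. A probe set was called at a Benjamini-Hochberg adjusted p below 0.05 in limma, adjusted over all 54613 probe sets. At 6 h of PGG, 7 of the 19 member probe sets were called higher and 3 lower than PBS, where 12.2% of all probe sets were called higher and 12.5% lower. The signals of PGG and PBS arrays did not overlap for 11 of the 19, against 37.5% of all probe sets. At 48 h, 7 were called higher and 5 lower, against backgrounds of 18.8% and 20.2%, and the groups did not overlap for 12 of the 19, against 44.5% of all probe sets. Between PGG at 48 h and PGG at 6 h, 4 were called higher and 6 lower, with 18.0% and 18.4% of all probe sets called, and 12 did not overlap, against 44.8%. With dim probe sets left out (mean below log2 5 in every group), 6 were higher and 3 lower at 6 h, and 5 higher and 5 lower at 48 h. The share of all probe sets called after that filter was not computed. Counted by the brightest probe set of each gene, 5 of 9 were higher and 2 lower at 6 h, and 4 higher and 4 lower at 48 h. Over all genes on their brightest probe sets, 17.2% were called higher and 16.9% lower at 6 h, and 23.9% and 24.3% at 48 h. The median absolute difference of the members was 0.243 at 6 h and 0.303 at 48 h, against 0.123 and 0.17 over all probe sets. The 9 brightest member probe sets ranked between percentiles 69.1 and 96 of mean signal, and a background of like brightness was not computed. These counts and medians therefore do not set the members apart. In all, 14 of the 19 were called at 1 or both times, against 45.1% of all probe sets, and 4 (the brightest probe sets of DNMT1, EZH2, EED and SUZ12) were called in opposite directions at the 2 times, against 4.35%.

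The cut-offs of the study's methods are an adjusted p below 0.005 and a mean difference beyond 1.5, and they were applied to the limma values under both readings of that difference. With the methods' t-test, 0 member probe sets passed at 6 h or 48 h under either reading. That test was stricter over all probe sets: 2717 had an adjusted p below 0.005 at 6 h and 6185 at 48 h, against 8200 and 15510 with limma. The share of all probe sets past both of its cut-offs was not computed. For limma with the difference read as log2 units, no member probe set passed at 6 h, where 0.298% of all probe sets passed upward and 0.438% downward. None passed at 48 h (2.26% and 1.86%) or between the 2 PGG times (1.75% and 1.28%). Read as 1.5-fold, 3 passed at 6 h, namely DNMT3B and the brighter TET1 probe set upward and TET3 downward, with 4.07% and 4.67% of all probe sets passing upward and downward. At 48 h, DNMT3B, the dimmer TET1 probe set and the dim EED probe set passed upward and none downward, with backgrounds of 10.3% and 10.1%. Between 48 h and 6 h of PGG, TET3 passed upward and DNMT1, DNMT3A, EZH2 and EED downward, with backgrounds of 9.53% and 8.81%.

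**Figure D1:**
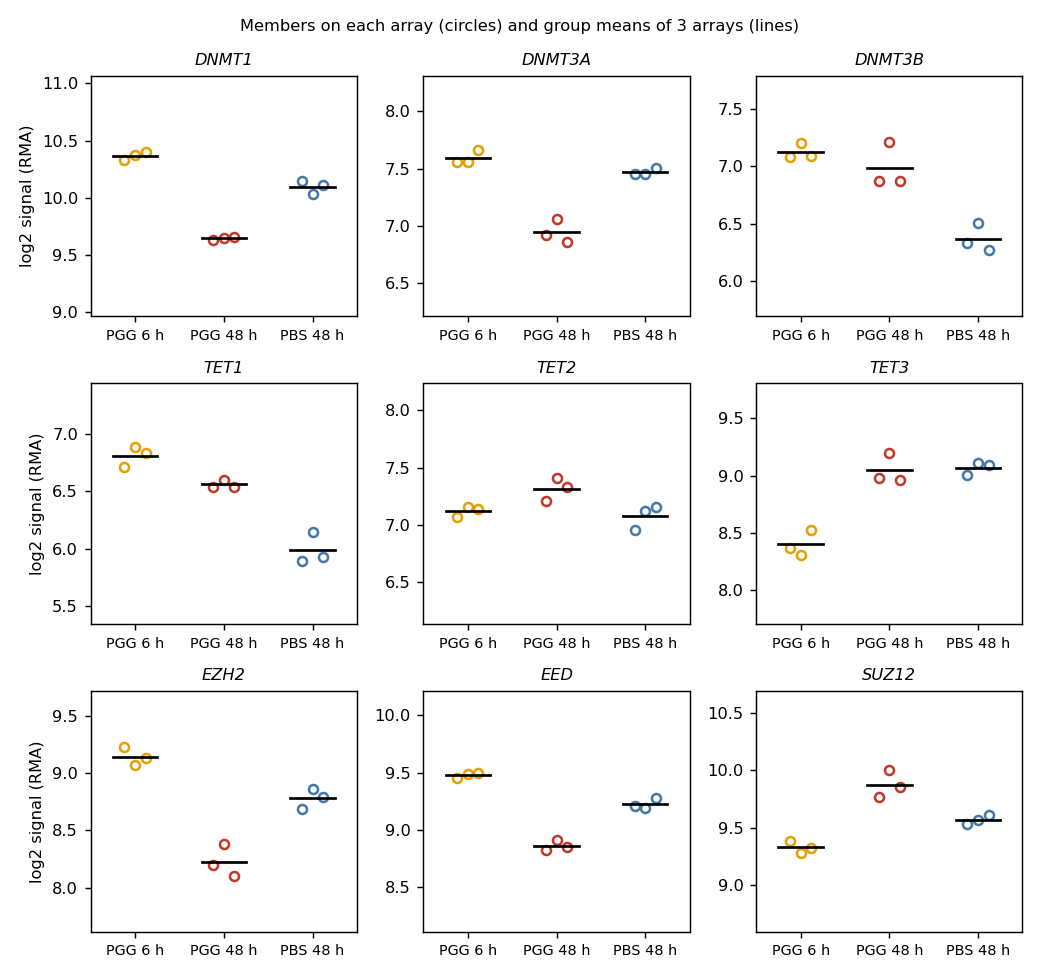
Log2 RMA signal (vertical axes, each spanning about the same number of units) of the brightest probe set of each of the 9 genes on every array, in the groups PGG 6 h, PGG 48 h and PBS 48 h (circles, 3 arrays per group; lines, group means). DNMT1, EZH2 and EED are highest with PGG at 6 h and lowest with PGG at 48 h, SUZ12 has the reverse order, and both PGG groups of DNMT3B and TET1 lie above all PBS arrays.

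Hepatoma markers had signal in every group, markers of other liver cell types were mixed, and the late PGG arrays differed in a sign of RNA quality. The level of log2 5 used for these markers lies below every array median, so reaching it is a weak criterion. Array medians lay between 5.16 and 5.20, and the lowest correlation between arrays of a group was 0.9979 for PGG at 6 h, 0.9932 for PGG at 48 h and 0.9953 for PBS. All 12 measured hepatoma markers reached a mean of log2 5 in every group, with summed linear signals of 66314 to 67446 at 6 h of PGG, 54847 to 55325 at 48 h and 57591 to 58410 in PBS. Of 16 measured markers of other liver cell types, 10 reached that level in each group, with sums of 5079 to 5885 at 6 h of PGG, 4541 to 5309 at 48 h and 5200 to 5443 in PBS, and the endothelial CDH5 and the leukocyte PTPRC lay between 3.26 and 3.38. LYZ was bright in every group, at 12.13 with PGG at 6 h, 11.96 with PGG at 48 h and 12.14 in PBS, while LUM read 6.19 with PGG at 48 h against 2.93 in PBS, and KRT19 read 8.29 at 6 h and 8.09 at 48 h of PGG against 6.07 in PBS. CD14 read 5.35 at 6 h and 4.78 at 48 h of PGG against 6.16 in PBS. Of the 16, 2 were called higher and 2 lower at 6 h, and 4 higher and 3 lower at 48 h. Over all genes, 17.2% were called higher and 16.9% lower at 6 h, and 23.9% and 24.3% at 48 h. Further probe sets of LUM and KRT19 did not pass at either time (48 h differences -0.11 and 0.07, adjusted p = 0.5 and 0.45), whereas dimmer ones of COL1A1 and KRT7 rose at 48 h, by up to 3.77 and 2.26. The part of these markers in the members' differences was not tested. The ACTB 3′ probe set exceeded the 5′ one by 1.13 to 1.23 with PGG at 6 h, by 2.14, 4.03 and 2.67 on replicates 1, 2 and 3 of PGG at 48 h, and by 0.96 to 1.57 in PBS. Replicate 2 of PGG at 48 h was also the highest of its group for 13 of the 19 member probe sets. The matching share over all probe sets was not computed, so this count does not set the members apart. On ACTB, replicates 1 and 3 were above the PBS range as well. For GAPDH the same difference was 0.27, 1.83 and 0.39 on replicates 1, 2 and 3 of PGG at 48 h. It was 0.19 to 0.24 with PGG at 6 h and 0.13 to 0.35 in PBS, so there replicate 1 lay within the PBS range and replicate 3 just above it. The part of RNA quality in the 48 h results was not tested. Without replicate 2, the 48 h call of TET2 was lost and those of the other brightest probe sets were kept. Since these are bulk RNA samples, fewer cells expressing a gene and less of its RNA per cell cannot be told apart.

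Among the DNA methyltransferases, DNMT1 had 1 probe set, 201697_s_at. It read 10.33, 10.37 and 10.40 with PGG at 6 h, 9.63, 9.65 and 9.66 with PGG at 48 h, and 10.15, 10.03 and 10.11 in PBS. The 3 groups did not overlap, and the order was PGG 6 h, PBS, PGG 48 h. The maintenance methyltransferase was 1.21-fold of PBS at 6 h (log2 difference 0.27 ± 0.06, SE; adjusted p = 0.0068) and 0.732-fold at 48 h (-0.45 ± 0.06; adjusted p = 1e-04). Between the 2 PGG times it fell by 0.72 on the log2 scale (adjusted p = 2.7e-06).

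DNMT3A, a de novo methyltransferase, had 3 probe sets, and they did not give the same answer at 48 h. The brightest, 222640_at, read 7.56, 7.56 and 7.66 with PGG at 6 h, 6.92, 7.06 and 6.86 with PGG at 48 h, and 7.45, 7.45 and 7.51 in PBS. Every array of PGG at 48 h lay below every other array, and the 6 h arrays lay just above those of PBS. The difference from PBS was 0.12 at 6 h, which did not pass (95% interval -0.03 to 0.28; adjusted p = 0.26), and -0.52 ± 0.07 at 48 h (adjusted p = 9.8e-05). Probe set 218457_s_at agreed in direction at 48 h, with 5.86, 5.95 and 5.82 with PGG against 6.20, 6.17 and 6.09 in PBS, a difference of -0.28 (adjusted p = 0.0073). The third, 244428_at, was dim and went the other way, with 3.75, 3.95 and 3.91 with PGG at 48 h against 3.53, 3.47 and 3.55 in PBS, a difference of 0.35 (adjusted p = 0.0045). It did not pass at 6 h, where PGG arrays read 3.37, 3.29 and 3.53 (difference -0.12; adjusted p = 0.36). The lower DNMT3A signal at 48 h therefore rests on 2 of its 3 probe sets, and the mean of the 3 differed from PBS by -0.15 (adjusted p = 0.047).

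DNMT3B, the other de novo enzyme, was above PBS at both times. Its single probe set, 220668_s_at, read 7.08, 7.20 and 7.09 with PGG at 6 h, 6.87, 7.21 and 6.87 with PGG at 48 h, and 6.33, 6.51 and 6.27 in PBS. No PBS array reached any PGG array. The signal was 1.69-fold of PBS at 6 h (0.75 ± 0.10; adjusted p = 0.00025) and 1.53-fold at 48 h (0.61 ± 0.10; adjusted p = 0.00051). The 2 PGG groups overlapped, and their difference of -0.14 did not pass (95% interval -0.37 to 0.09; adjusted p = 0.35). Without replicate 2 of PGG at 48 h, whose 7.21 stood apart from its group, that difference was -0.25 and passed (adjusted p = 0.04).

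The change of DNMT1 minus that of DNMT3B within an array was -0.48 at 6 h and -1.06 at 48 h relative to PBS. For this and 2 further pairs of members, all picked after their values were seen, the exact two-sided permutation p over 3 against 3 arrays was 0.1, the smallest this design allows. These differences are therefore descriptions.

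Of the TET dioxygenases, TET1 was higher than PBS at both times on both of its probe sets. Probe set 228906_at read 6.71, 6.89 and 6.83 with PGG at 6 h, 6.54, 6.60 and 6.54 with PGG at 48 h, and 5.89, 6.14 and 5.93 in PBS. The 3 groups were separate, with PGG 6 h on top. The signal was 1.77-fold of PBS at 6 h (0.82 ± 0.08; adjusted p = 2.5e-05), the largest rise of any member probe set at that time, and 1.49-fold at 48 h (0.57 ± 0.08; adjusted p = 0.00014). The dimmer 214862_x_at ranked the PGG times the other way: it read 4.76 on all 3 arrays of PGG at 6 h, 4.84, 5.60 and 4.99 with PGG at 48 h, and 4.11, 4.20 and 4.26 in PBS. Its differences were 0.57 (adjusted p = 0.02) and 0.95 (adjusted p = 0.00044). Both probe sets placed TET1 above PBS, but which PGG time was higher was not settled: 48 h minus 6 h was -0.25 on the brighter one (adjusted p = 0.032) and 0.38 on the dimmer one (adjusted p = 0.082). The first of these calls was lost, at adjusted p from 0.077 to 0.12, on leaving out replicate 2 or 3 of PGG at 6 h or replicate 1 or 3 of PGG at 48 h.

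TET2 changed little. Its brightest probe set, 227624_at, read 7.07, 7.16 and 7.14 with PGG at 6 h, 7.21, 7.41 and 7.33 with PGG at 48 h, and 6.96, 7.12 and 7.16 in PBS. PGG at 6 h and PBS overlapped (difference 0.04; adjusted p = 0.77), and PGG at 48 h was above both. The 48 h difference of 0.24 ± 0.08 passed (adjusted p = 0.032) with a narrow gap, the lowest PGG array being at 7.21 and the highest PBS array at 7.16. It was no longer called without replicate 1 of PBS, replicate 2 or replicate 3 of PGG at 48 h, with adjusted p of 0.11, 0.097 and 0.079. It was also lost with the methods' t-test (adjusted p = 0.13), with only PGG at 48 h and PBS in the fit (adjusted p = 0.068) and with the mean of its 3 probe sets (0.11; adjusted p = 0.3). The 2 other TET2 probe sets, with group means of 3.66 to 4.17, did not pass in any comparison.

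TET3 was the member that fell most at 6 h. Probe set 235542_at read 8.37, 8.31 and 8.53 with PGG at 6 h, 8.98, 9.20 and 8.96 with PGG at 48 h, and 9.01, 9.11 and 9.09 in PBS. The early PGG arrays lay well below all others, and the late ones spanned those of PBS. The signal was 0.63-fold of PBS at 6 h (-0.67 ± 0.09; adjusted p = 0.00017), and at 48 h the difference was -0.02 (95% interval -0.21 to 0.17; adjusted p = 0.87). Probe set 214754_at had 5.56, 5.56 and 5.65 with PGG at 6 h, 6.04, 6.28 and 5.90 with PGG at 48 h, and 6.12, 5.91 and 5.89 in PBS, which gave -0.38 at 6 h (adjusted p = 0.016) and 0.10 at 48 h (adjusted p = 0.49). The third, 1554641_a_at, showed no such dip, with 5.63, 5.78 and 5.82 with PGG at 6 h, 5.69, 5.77 and 5.86 with PGG at 48 h, and 5.78, 5.80 and 5.71 in PBS (difference -0.02 at 6 h; adjusted p = 0.9). The mean of the 3 was -0.36 from PBS at 6 h (adjusted p = 0.0013). Within arrays, the change of TET1 minus that of TET3 relative to PBS was 1.49 at 6 h, where they moved in opposite directions, and 0.60 at 48 h.

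In PRC2, the catalytic subunit EZH2 had 1 probe set, 203358_s_at. It read 9.23, 9.07 and 9.13 with PGG at 6 h, 8.20, 8.38 and 8.10 with PGG at 48 h, and 8.69, 8.86 and 8.79 in PBS. No array of a group overlapped another group, in the order PGG 6 h, PBS, PGG 48 h. EZH2 was 1.29-fold of PBS at 6 h (0.36 ± 0.09; adjusted p = 0.009) and 0.681-fold at 48 h (-0.55 ± 0.09; adjusted p = 0.00029). From the early to the late PGG arrays it fell by 0.92 (adjusted p = 6.2e-06), the largest difference between the PGG times among the 19 probe sets.

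EED, the subunit that reads the trimethylated mark, followed EZH2 on its bright probe set and not on its dim one. Probe set 209572_s_at read 9.45, 9.49 and 9.50 with PGG at 6 h, 8.82, 8.91 and 8.85 with PGG at 48 h, and 9.21, 9.19 and 9.28 in PBS. The groups were again separate, with differences from PBS of 0.25 ± 0.06 at 6 h (adjusted p = 0.0096) and -0.37 ± 0.06 at 48 h (adjusted p = 0.00047). Probe set 210656_at was dim, at 3.59, 3.67 and 4.07 with PGG at 6 h, 4.05, 4.33 and 3.66 with PGG at 48 h, and 3.05, 2.98 and 3.35 in PBS. It was above PBS at both times, by 0.65 (adjusted p = 0.019) and 0.89 (adjusted p = 0.0017). When the 2 were averaged, the 48 h difference of EED was 0.26 (adjusted p = 0.056), so its direction at 48 h depended on the probe set.

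SUZ12, the scaffold, ran against its 2 partners. Probe set 212287_at read 9.38, 9.28 and 9.32 with PGG at 6 h, 9.77, 10.00 and 9.85 with PGG at 48 h, and 9.53, 9.57 and 9.61 in PBS. The groups did not overlap, in the order PGG 48 h, PBS, PGG 6 h. SUZ12 was 0.845-fold of PBS at 6 h (-0.24 ± 0.07; adjusted p = 0.031) and 1.23-fold at 48 h (0.30 ± 0.07; adjusted p = 0.0059). The 6 h call was lost without replicate 2 or 3 of PBS or without replicate 2 or 3 of PGG at 6 h, at adjusted p from 0.073 to 0.11, while the 48 h call held without any 1 array. With the mean of its 3 probe sets, SUZ12 differed from PBS by -0.03 at 6 h (adjusted p = 0.86) and 0.22 at 48 h (adjusted p = 0.047). Its 2 further probe sets had group means of 2.72 to 3.51 and did not pass. A probe set annotated to both SUZ12 and its pseudogene SUZ12P1, which was not counted as a member, differed from PBS by -0.16 at 6 h (adjusted p = 0.35) and -0.04 at 48 h (adjusted p = 0.81). Within arrays, the change of EZH2 minus that of SUZ12 was 0.61 at 6 h and -0.86 at 48 h relative to PBS.

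**Figure D2:**
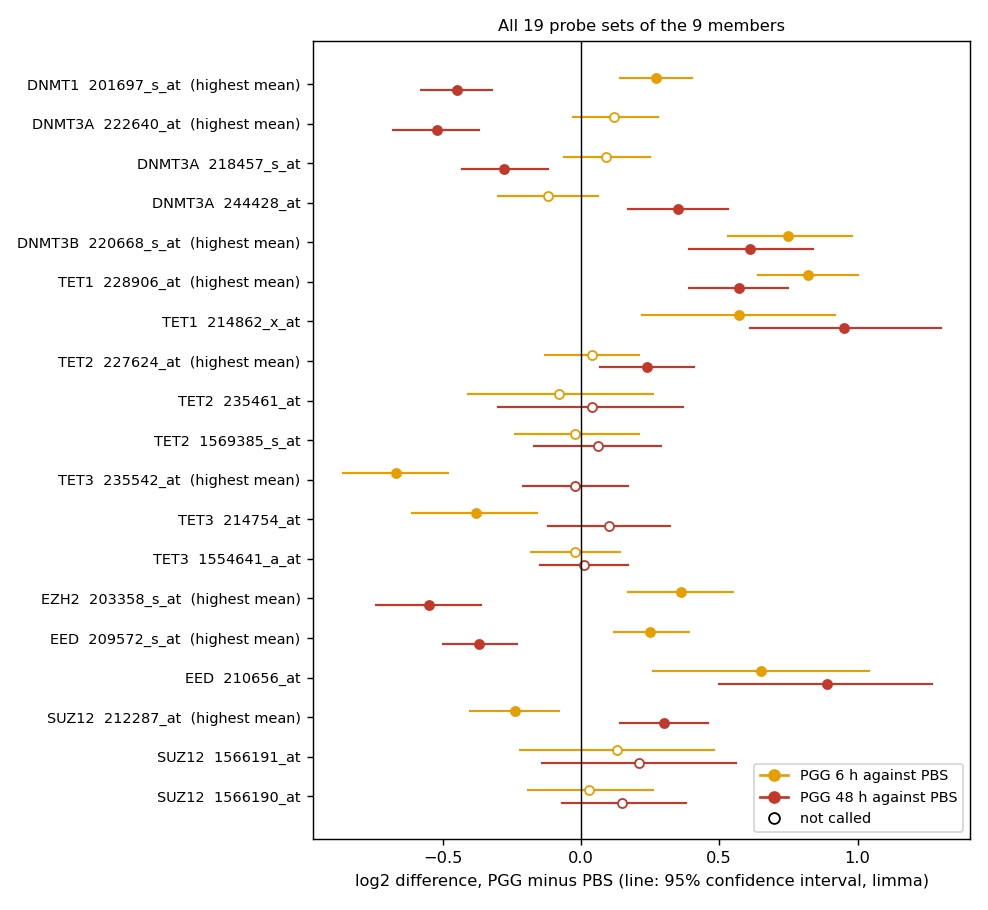
Log2 difference of PGG minus PBS (horizontal axis) for all 19 probe sets of the 9 genes, at 6 h and at 48 h, with 95% confidence intervals from limma (lines); open circles were not called. Probe sets of 1 gene disagree in direction at 48 h for DNMT3A (-0.52 and -0.28 against 0.35) and EED (-0.37 against 0.89).

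The genes whose signal tracked a member most closely over the 9 arrays were sought for the member of each family with the largest 48 h difference, among 6371 genes whose signal varied by an SD of at least 0.3. For DNMT3B these were LUC7L2 (Pearson r = 0.9842), NEDD9 (0.9818) and MFAP1 (0.9758). TET1 was matched by TLCD3A (0.9906), CGNL1 (0.9893) and ZNF789 (0.9885). The nearest to EZH2 were LIN28B (0.9955), DMD (0.9944) and G3BP1 (0.9931), and LIN28B differed from PBS by 0.36 at 6 h and -0.54 at 48 h, close to the 0.36 and -0.55 of EZH2. The 9 arrays form 3 groups, so these coefficients mostly describe group means.

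The partners of the 9 enzymes were read on the brightest probe set per gene and adjusted over 19775 genes, of which 17.2% were called higher and 16.9% lower at 6 h, and 23.9% and 24.3% at 48 h. Of 17 measured partners and readers of DNA methylation, 9 were higher and 1 lower at 6 h, and 5 higher and 7 lower at 48 h (median 0.25 at 6 h and -0.08 at 48 h, against 0.007 and -0.017 over all genes). UHRF1, which recruits DNMT1 to hemimethylated DNA, shared the course of DNMT1 with larger steps: it read 10.56, 10.40 and 10.47 with PGG at 6 h, 8.18, 8.41 and 8.14 with PGG at 48 h, and 9.33, 9.39 and 9.35 in PBS, differences of 1.12 (adjusted p = 5.5e-07) and -1.11 (adjusted p = 1.4e-07). Its relative UHRF2 rose at both times, by 0.61 and 1.37. HELLS, a chromatin remodeller needed for DNA methylation, and its partner CDCA7 were the deepest falls of the list at 48 h on their brightest probe sets, at -2.78 and -2.41. Of 5 HELLS probe sets, 4 fell at 48 h, by 1.81 to 2.78, but 234040_at was far above PBS at both times, with 8.65, 8.58 and 8.48 with PGG at 6 h, 7.40 on all 3 arrays of PGG at 48 h, and 3.53, 4.08 and 4.44 in PBS (differences 4.55 and 3.38). USP7, a deubiquitinase that stabilises DNMT1 and UHRF1, fell at both times on its brightest probe set, by 0.40 and 1.57 log2 units. Probe set 201499_s_at also fell at both times, by 0.40 and 0.87. In contrast, 222032_s_at fell only at 48 h, by 0.48 (difference at 6 h -0.06; adjusted p = 0.68). The dim 230967_s_at did not pass at either time (-0.22 and 0.23; adjusted p = 0.15 and 0.092).

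Among 14 measured demethylation partners, 4 were higher and 3 lower at 6 h, and 7 higher and 5 lower at 48 h. GADD45B, a stress gene linked to active demethylation, and the cytidine deaminase APOBEC3B led the rises at 48 h, by 2.51 and 2.48. OGT, the glycosyltransferase that binds TET proteins, fell by 1.23 at 6 h and by 0.64 at 48 h on its brightest probe set. Other OGT probe sets fell further: 212307_s_at differed from PBS by -2.47 and -2.23, and 207564_x_at by -2.01 and -1.73. The dimmer 220594_at did not pass at either time (-0.11 and -0.24). IDH2, which can supply the 2-oxoglutarate that TET enzymes use, rose by 0.40 and 0.90, while cytosolic IDH1 fell by 0.62 at 48 h.

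Of the 11 other PRC2 subunits and cofactors, 4 were higher and 2 lower at 6 h, and 2 higher and 5 lower at 48 h. PHF19, a Polycomb-like protein that binds H3K36 methylation, was 1.11 above PBS at 6 h (adjusted p = 2.2e-06) and -0.04 from it at 48 h (adjusted p = 0.76), where 1 of its 2 other probe sets fell by 1.23. The accessory subunits JARID2 and PHF1 were the late rises, by 1.58 and 1.55, with PHF1 at 10.29, 9.94 and 10.27 with PGG at 48 h against 8.63, 8.61 and 8.62 in PBS. The histone-binding subunits RBBP4 and RBBP7 fell by 0.65 and 0.63 at 48 h, as the brightest probe sets of EZH2 and EED did, and EZH1, the paralogue of EZH2, did not pass at either time on its brightest probe set (0.07 and 0.18), although 2 of its 4 others rose at 48 h, by 0.22 and 0.63. KDM6A, a demethylase of the mark that PRC2 sets, was lower at 6 h and higher at 48 h, as SUZ12 was: it read 8.13, 8.15 and 8.26 with PGG at 6 h, 9.38, 9.69 and 9.42 with PGG at 48 h, and 8.85, 8.85 and 8.89 in PBS, differences of -0.68 (adjusted p = 4.2e-05) and 0.63 (adjusted p = 3.3e-05). Of its 3 other probe sets, 2 fell at 6 h, by 1.06 and 0.96, and none passed at 48 h. KDM6B, the other demethylase of that mark, had -0.30 and 0.25, neither of which passed (adjusted p = 0.055 and 0.088), although 3 of its 4 other probe sets fell at 6 h, by 0.62 to 0.86.

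**Figure D3:**
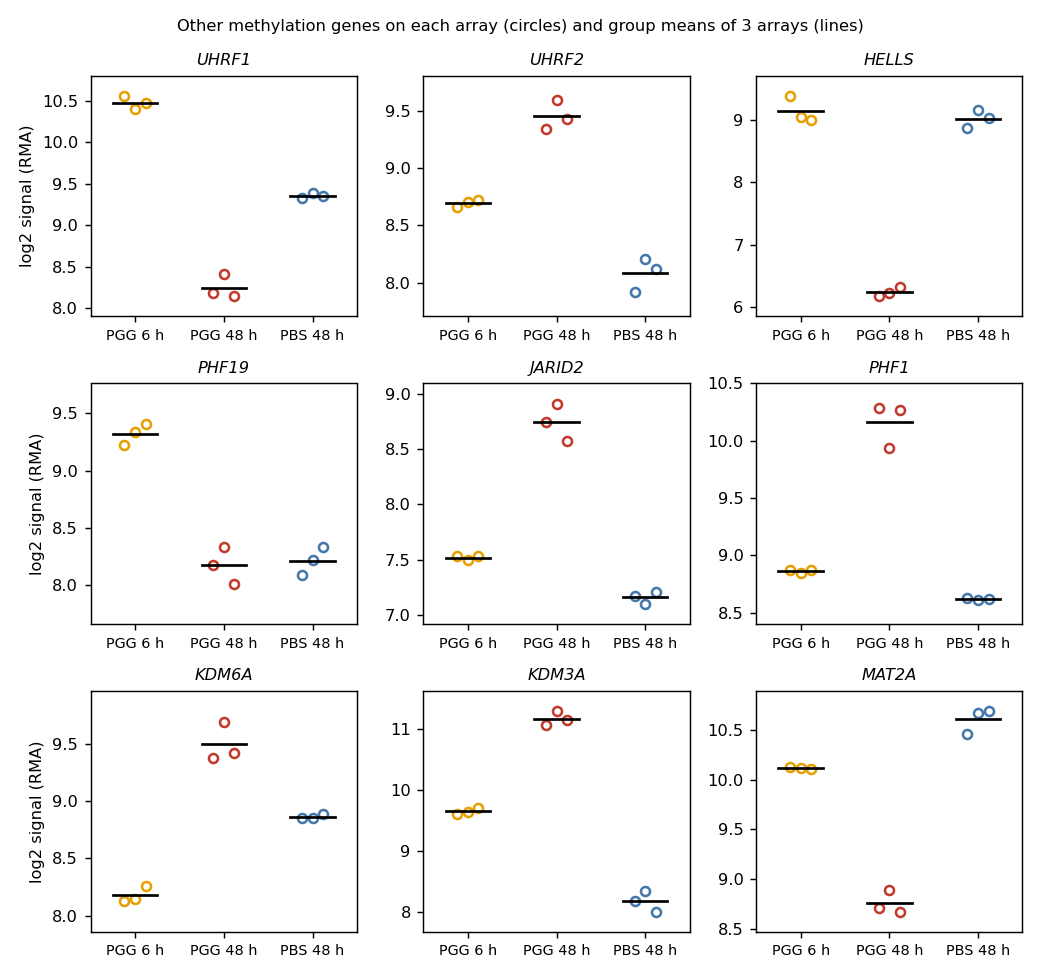
Log2 RMA signal (vertical axes) of 9 genes from the partner lists on every array, in the groups PGG 6 h, PGG 48 h and PBS 48 h (circles, 3 arrays per group; lines, group means). UHRF1 has the group order of DNMT1, KDM6A has that of SUZ12, and the brightest HELLS probe set lies between 6.17 and 6.32 on the late PGG arrays, while 1 further HELLS probe set, not drawn, was above PBS at both times.

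Outside these partners, 4 of 17 measured PRC1 subunits were higher and 8 lower at 6 h, and 5 higher and 6 lower at 48 h, with CBX6 lowest in both (-0.76 and -1.13) and RYBP highest at 48 h (1.31). Of 29 other histone lysine methyltransferases, 10 were higher and 5 lower at 6 h, and 11 higher and 11 lower at 48 h. Of 20 other histone lysine demethylases, 6 were higher and 2 lower at 6 h, and 9 higher and 6 lower at 48 h, led by the H3K9 demethylase KDM3A at 1.48 and 3.01. Among the 12 genes of methyl donor supply, 2 were higher and 3 lower at 6 h, and 4 higher and 5 lower at 48 h. MAT2A, the S-adenosylmethionine synthetase of dividing liver cells, read 10.13, 10.12 and 10.11 with PGG at 6 h, 8.71, 8.89 and 8.67 with PGG at 48 h, and 10.46, 10.67 and 10.69 in PBS (-0.49 and -1.85), and GNMT, which consumes S-adenosylmethionine, was dim, at 4.51 with PGG at 48 h against 4.06 in PBS (0.45; adjusted p = 0.0057).

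DNMT1, EZH2 and UHRF1 are known to be transcribed most in cells entering S phase, and 20 S-phase genes driven by E2F factors were read beside them. At 6 h, 18 of these were higher and 1 lower (median 0.70), and at 48 h 6 were higher and 10 lower (median -0.36). Between PGG at 48 h and PGG at 6 h, 0 were higher and 18 lower (median -1.24), where 23.6% of all genes were called higher and 23.4% lower. PCNA, the replication clamp, differed from PBS by 0.90 and -0.47, and MCM6, of the replicative helicase, by 0.60 and -1.08. The list was not uniform: CCNE2 and CDT1 stayed above PBS at 48 h (1.74 and 1.09), and RBL1 was below it at both times (-0.95 and -1.39). DNMT1, EZH2 and EED thus shared the signs of this list's medians, and their differences were smaller than those medians in each comparison except at 48 h, where -0.45, -0.55 and -0.37 stood beside -0.36. The part of cell cycle stage in the members' differences was not tested.

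**Figure D4:**
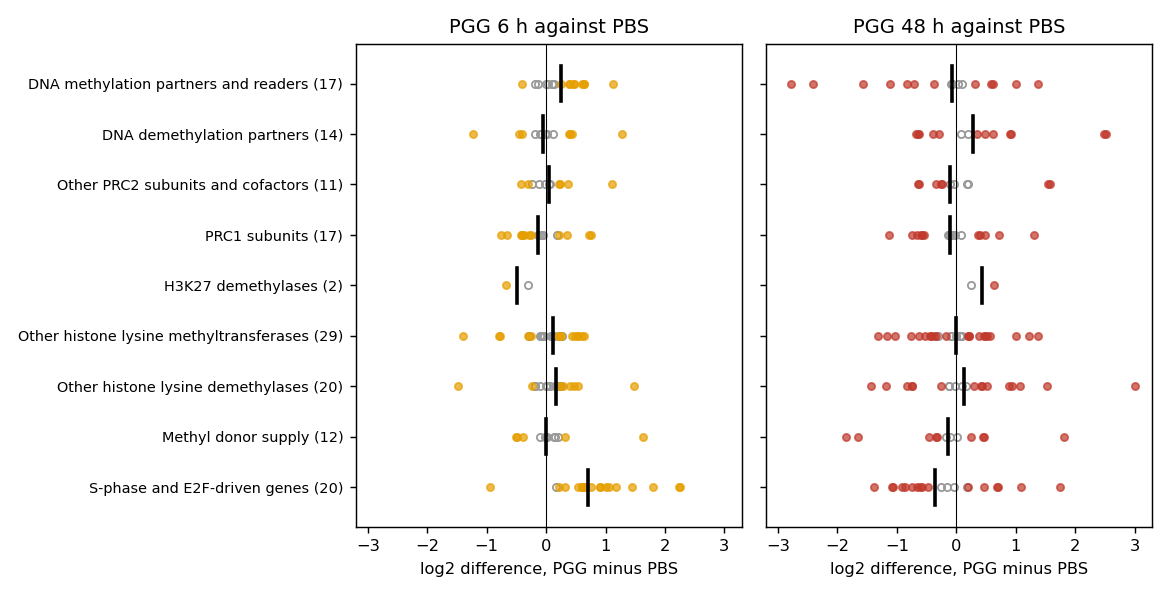
Log2 difference of PGG minus PBS (horizontal axes) for each measured gene of 9 lists of partner genes, at 6 h (left panel) and 48 h (right panel); filled circles were called, open circles were not, bars are list medians and the number of measured genes stands in brackets. The list of S-phase genes is the one with the highest median at 6 h (0.70) and the lowest at 48 h (-0.36).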

How the data were processed

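RNA of 9 Huh7 cultures (3 per group) was hybridised to Affymetrix HG-U133 Plus 2.0 arrays. The deposited values are log2 signals that the authors obtained with RMA in Affymetrix Expression Console, which corrects background, forces all arrays to 1 distribution and summarises probes; the versions are not given in the sources used here. Quantile normalization sets overall shifts between arrays to 0, so every difference is relative to the array as a whole, and the values were deposited with 2 decimals. Depth does not apply to arrays, and their number limits the precision.

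Of 54675 probe sets, 62 controls were left out. The platform annotation of 2016 gave 41091 of the others 1 symbol, 1801 several and 11721 none, and 41037 of the first matched RefSeq by Entrez ID. Means per group were fitted on all 9 arrays with limma 3.58.1 (R 4.3.3; lmFit, eBayes), with Benjamini-Hochberg adjustment over 54613 probe sets, or over 19775 genes on the probe set with the highest mean. The fit was tested on simulated data with known differences. The study tested probe sets by a t-test, which was run as an alternative, as were other spread models, scalings, filters, array weights, the replicate number as a block, and leaving out each array. The main fit did not pair samples by replicate number. Deviations from group means of same-numbered arrays correlated between -0.09 and 0.16. Differently numbered arrays were not set beside them, so these values cannot exclude a pairing. Per-array values are given for the probe set of each gene with the highest mean and for others whose call differed. Of partner lists of up to 12 genes any called gene could be named, and of longer ones up to 3 rises and 3 falls per comparison, while EZH1, KDM6B, PCNA, the markers and further probe sets of named partners were named after their values were seen. Members and lists were chosen with earlier results of these data known. Promoter windows come from RefSeq on GRCh38.p14 and matched all 9 genes; protein sequences were not used here.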

Additional observations from a re-analysis of the deposited data

Results flagged for a closer look

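For 7 of the 9 genes the difference from PBS was not the same at the 2 times of PGG. This is by the limma contrast of PGG at 48 h with PGG at 6 h, in which the shared PBS arrays cancel. Of the 9 genes, 2 were higher and 5 lower at 48 h. Over all genes on their brightest probe sets, 23.6% were called higher and 23.4% lower. The 48 h difference minus the 6 h difference was -0.72 for DNMT1, -0.65 for DNMT3A, -0.62 for EED and -0.92 for EZH2. For TET1 it was -0.25. It was 0.64 for TET3, whose brightest probe set did not pass against PBS at 48 h, and 0.55 for SUZ12. These values are for the brightest probe set, and dim ones of DNMT3A (0.47; adjusted p = 0.00067), EED (0.24; adjusted p = 0.35) and TET1 (0.38; adjusted p = 0.082) had the opposite sign. With the mean of all probe sets of a gene, DNMT3A was at -0.18 (adjusted p = 0.02), EED at -0.19 (adjusted p = 0.16), TET1 at 0.07 (adjusted p = 0.62), TET3 at 0.39 (adjusted p = 0.00041) and SUZ12 at 0.25 (adjusted p = 0.03). Within each group, 3 arrays are too few for a search for single outlying arrays.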

How the results depend on the processing

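Of 450 values recomputed for single genes, 428 stayed on the same side of the threshold with the same sign, 17 lost their call, 3 gained one and 2 changed sign. With the mean of all probe sets of a gene, EED at 48 h was 0.26 (adjusted p = 0.056) and TET1 between PGG at 48 h and 6 h was 0.07 (adjusted p = 0.62), both opposite to the brightest probe set. With the replicate number as a block, 7 member probe sets were higher and 2 lower at 6 h, and 7 higher and 5 lower at 48 h, SUZ12 at 6 h lost its call (-0.24; adjusted p = 0.054), and TET2 between the PGG times gained one (0.19; adjusted p = 0.05). Leaving out 1 array at a time, the count of member probe sets lower at 6 h ranged from 1 to 3 (1 without replicate 2 of PGG at 6 h). The methods' t-test called 4 higher at 48 h, where limma called 7, and 6 higher and 3 lower at 6 h and 5 lower at 48 h. At an unadjusted p under 0.05 it had 8 higher and 3 lower at 6 h, and 7 higher and 5 lower at 48 h. The share of all probe sets called at 0.05 was not computed for the t-test, the block or the fits without 1 array. These counts therefore do not set the members apart. At an adjusted p under 0.005, the t-test passed 2717 of all probe sets at 6 h and 6185 at 48 h, against 8200 and 15510 with limma. At an adjusted p under 0.005 with a log2 difference beyond 1.5, limma left 0 in each direction of all 3 comparisons. With 1.5-fold in its place, a reading added after seeing the data, 2 were higher and 1 lower at 6 h, 3 higher and 0 lower at 48 h, and 1 higher and 4 lower between the PGG times, while the methods' t-test left 0 in both comparisons with PBS. The other counts stayed within 1.5 times the reported ones under every alternative run.

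Precision is limited by 3 arrays per group, by dim probe sets (13 of 19 reached log2 5 in a group) and by the array design, since a probe set covers part of a transcript and probe sets of DNMT3A, TET1, TET3 and EED disagreed. No protein, histone mark or DNA methylation was measured in these files. Nothing beyond the label says whether replicate cultures were treated independently.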
